A study of Caenorhabditis elegans with 2 samples.

Results

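The genes described here make, fold and dispose of proteins of the endoplasmic reticulum (ER) in Caenorhabditis elegans, and the question was which of them carry a CEBP-1 peak in the promoter. They were listed by function: 38 symbols for disulfide isomerases, chaperones, the translocon, signal peptidase, oligosaccharyltransferase, the ER membrane protein complex and ER-associated degradation (ERAD). Of these, 37 were found among the 19973 protein-coding genes of the WBcel235 annotation, and emc-4 was not matched by its symbol. A gene was called bound when the summit of a peak in the conservative list of the series lay from 1000 bp upstream to 200 bp downstream of any of its annotated 5′ ends. A second call asked, in addition, for a summit in the same promoter in the thresholded list of each replicate.

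Proteins that enter the secretory pathway are threaded into the ER through the Sec61 channel, lose their signal peptide, receive glycans and are folded by chaperones and protein disulfide isomerases. Proteins that fail to fold are returned to the cytosol, ubiquitinated and degraded by ERAD, with the ATPase Cdc48 pulling them from the membrane. When unfolded proteins accumulate, the sensors IRE-1, PEK-1 and ATF-6 start the unfolded protein response (UPR), which raises the output of many of these genes. IRE-1 acts by splicing the mRNA of the transcription factor XBP-1. CEBP-1 is a basic leucine zipper factor of the C/EBP family, known in worms for roles in axon regeneration and stress responses.

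Chromatin immunoprecipitation with sequencing (ChIP-seq) was done on whole young adults of strain RW12290, in which CRISPR had inserted TY1, EGFP and 3xFLAG at the cebp-1 gene on chromosome X. The animals were 62 hours old, had been synchronised by starving bleached L1 larvae and carried no other stated allele or treatment. Chromatin was sheared to 200 to 800 bp and the fusion protein was pulled down with an anti-GFP antibody, per the description in the labels, although the antibody field reads cebp-1. There was 1 group of 2 biological replicates, and no untagged, untreated or input sample was used here, so no background from control animals stands beside the values. Whole animals mix all tissues, and a peak cannot be given to a cell type. Read depth is unknown because the files hold peaks and no read counts.

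The conservative list, built by comparing the replicates, held 1546 peaks, and the more inclusive optimal list held 1969. The thresholded lists of replicates 1 and 2 held 1488 and 797 peaks, and their ranked lists, before any threshold, held 33933 and 39805. Peak strength is the authors' signal value, whose scaling is not stated, and it is used to order and describe peaks within a list, with no signal set against that of another list. The irreproducible discovery rate (IDR) is the share of peaks at least as strong that would not be expected to repeat, and a higher −log10 of it marks a more repeatable peak.

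CEBP-1 was bound at 11 of the 37 ER genes in the conservative list (29.7%), where 5.06% of all protein-coding genes were bound. The 11 were the disulfide isomerase genes pdi-1, pdi-2 and pdi-6, the chaperone and glycoprotein sensor genes hsp-3 and uggt-1, the translocon genes sec-61.B, sec-61.G, trap-2 and trap-3, the signal peptidase gene spcs-2 and the ERAD ATPase gene cdc-48.1. They shared 10 peaks, because sec-61.B and trap-3 are transcribed away from each other and the summit lies between them. A summit in both thresholded replicate lists was found at 7 of the 37 (18.9%), against 2.57% of all genes: pdi-6, hsp-3, uggt-1, sec-61.B, trap-3, trap-2 and cdc-48.1. Of the other 4, spcs-2 passed in replicate 1 only, pdi-2 and sec-61.G in replicate 2 only, and pdi-1 in neither. The list was made by function, but with earlier results of these data known. With 2 replicates and such a list, these shares are descriptions, and no chance test was made on them.

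The DNA under the summits is shown for the 7 peaks in which a searched word was found, because these hold the matches described with the motif counts. Each stretch is read 5′ to 3′ on the strand of the gene named, on build ce11 (WBcel235), and capitals mark the words found. In pdi-6 the capitals mark TTGCGAAA, on the reverse strand as TTTCGCAA, and TTGCGCAA of the C/EBP consensus. In spcs-2 they mark the reverse of TTGCGAAA and, as TACGCAAA, the reverse of TTTGCGTA. The trap-3 and cdc-48.1 stretches hold TTTGCGTA, those of hsp-3 and pdi-1 hold the UPR element TGACGTGT, pdi-1 also holds CACGTG, and in pdi-2 they mark the outer parts of the ER stress element.
pdi-6, chrX:7068586-7068661, minus strand: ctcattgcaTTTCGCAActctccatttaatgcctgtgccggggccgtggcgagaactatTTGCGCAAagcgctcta
spcs-2, chrIII:12874827-12874911, plus strand: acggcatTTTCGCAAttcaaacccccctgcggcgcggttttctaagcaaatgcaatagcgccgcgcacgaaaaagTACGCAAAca
trap-3, chrIV:2389158-2389203, plus strand: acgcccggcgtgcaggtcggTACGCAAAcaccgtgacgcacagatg
cdc-48.1, chrII:10563542-10563587, minus strand: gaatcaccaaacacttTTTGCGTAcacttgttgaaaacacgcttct
hsp-3, chrX:6092168-6092263, minus strand: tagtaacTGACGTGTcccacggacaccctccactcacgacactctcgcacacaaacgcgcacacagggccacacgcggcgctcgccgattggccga
pdi-1, chrIII:3701781-3701851, minus strand: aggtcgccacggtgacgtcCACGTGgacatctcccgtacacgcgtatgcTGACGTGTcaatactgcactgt
pdi-2, chrX:4524146-4524174, plus strand: gcgggCCAATcgacgcgttCCACGactaa

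Among the disulfide isomerases and their oxidase, 3 of 5 genes were bound. The pdi-6 gene, for a protein disulfide isomerase that forms and rearranges disulfide bonds, had the strongest peak of all the ER genes. The peak covered X 7068491 to 7068738, and the summit was intergenic, 53 bp before the 5′ end. The conservative list gave a signal of 615, replicate 1 gave 357 and replicate 2 gave 269. It ranked 38 in the conservative list, 41 in the ranked list of replicate 1 and 40 in that of replicate 2, so it stood near the top in every list, within the first 2.46% of the conservative peaks. The −log10 of its global IDR was 5.00.

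The peaks at pdi-2 and pdi-1 were weaker. The pdi-2 peak, at X 4524006 to 4524309, was the only ER gene peak whose summit lay in an exon, 3 bp downstream of a 5′ end, and all 9 others were intergenic. The signal was 111 over the series (rank 825), 49.8 for replicate 1 and 61.1 for replicate 2. The pdi-1 peak, at III 3701669 to 3701972, was the weakest of the 10, at 104 over the series (rank 916), 47.2 for replicate 1 and 50.2 for replicate 2. Its summit lay 360 bp upstream of pdi-1 and 439 bp upstream of the neighbouring gene C14B1.2, so it counts for both genes. It was in neither thresholded replicate list, although both ranked lists held it.

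Of the 6 ER chaperone genes, 2 were bound. The hsp-3 gene, which encodes an ER Hsp70 of the BiP family, was bound at X 6092056 to 6092359, 84 bp upstream. The signal of this peak was 207 (rank 306), or 109 in replicate 1 alone and 94.2 in replicate 2 alone. The −log10 of its global IDR was 4.52, the highest after those of pdi-6 and cdc-48.1. The uggt-1 gene encodes a UDP-glucose:glycoprotein glucosyltransferase, which marks unfolded glycoproteins for another round of folding. Its peak, at X 7501000 to 7501303 with the summit 170 bp upstream, had a signal of 119 (rank 734, 52.6 and 69.4 in replicates 1 and 2).

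The other BiP gene, hsp-4, was not bound. Its strongest ranked peak had a signal of 43.5 over the series and 29.5 in replicate 1, below the lowest bound ER gene in each list, and replicate 2 listed no overlapping peak. The promoters and gene bodies of hsp-3 and hsp-4 shared no run of 50 bases.

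The translocon and TRAP group had the most bound members, 4 of 7, with sec-61.B and trap-3 counted through the same peak. TRAP is the translocon-associated protein complex, and SEC-61.B and SEC-61.G are the small subunits of the Sec61 channel. The peak at IV 2389026 to 2389329 lay 267 bp upstream of trap-3 and 503 bp upstream of sec-61.B, with a signal of 163 (rank 438, 82.7 and 94.0 in replicates 1 and 2). The sec-61.G peak at V 10897217 to 10897520 had its summit 226 bp upstream and a signal of 143 (rank 552, 73.0 and 72 in replicates 1 and 2). That summit also lay 826 bp upstream of F32D8.13.

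The trap-2 peak, X 768163 to 768466, was centred 246 bp upstream of trap-2 and 281 bp upstream of ile-2, the gene on its other side. The 3 lists gave signals of 120 (conservative, rank 718), 68.1 (replicate 1) and 54.1 (replicate 2). The gene of the large channel subunit, sec-61.A, and those of trap-1 and trap-4 were not bound, and the ranked summits in their promoters had signals of 62.0, 45.6 and 22.9. Both complexes therefore had subunit genes on each side of the threshold.

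In the signal peptidase and oligosaccharyltransferase group 1 of 5 genes was bound. That gene, spcs-2, encodes a subunit of the signal peptidase complex, which removes the signal peptide. Its peak at III 12874743 to 12875046 was centred 136 bp upstream of spcs-2 and 239 bp upstream of mrg-1, so it lies in both promoters. Replicate 1 gave a signal of 126 and replicate 2 one of 56.9, with 175 (rank 386) over the series. Its rank was 298 in replicate 1 and 696 in replicate 2. The oligosaccharyltransferase subunit genes ostb-1 and ribo-1, whose enzyme transfers glycans to new proteins, were not bound.

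None of the 5 matched genes of the ER membrane protein complex, which inserts membrane proteins, was bound, and 2 of them had any ranked summit in the promoter. Of the 9 ERAD genes, cdc-48.1 alone was bound. It encodes a form of the ATPase CDC-48, called p97 or VCP in mammals, that extracts ubiquitinated proteins. Its peak, at II 10563477 to 10563651 with the summit 160 bp upstream, was the second strongest of the 10, at a signal of 353 (rank 114, 194 and 159 in replicates 1 and 2) and a −log10 global IDR of 5.00.

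The other 8 ERAD genes were not bound. The paralogue cdc-48.2 had a ranked summit at a signal of 23.6. In the ranked list of the series, summits were also present at marc-6, a ubiquitin ligase gene (38.7), and sel-1, which encodes the partner of the ligase SEL-11 (25), and were absent from the promoters of sel-11, the derlin gene cup-2 and the Cdc48 cofactor genes ufd-1, npl-4.1 and npl-4.2. The promoters of npl-4.1 and npl-4.2 shared 95.7% of their 50-base words, and neither had a ranked summit. How reads that fit both copies were handled is not given in the sources used here, so a lack of signal at these 2 genes is uncertain. The pair cdc-48.1 and cdc-48.2 shared no 50-base word.

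**Figure D1:**
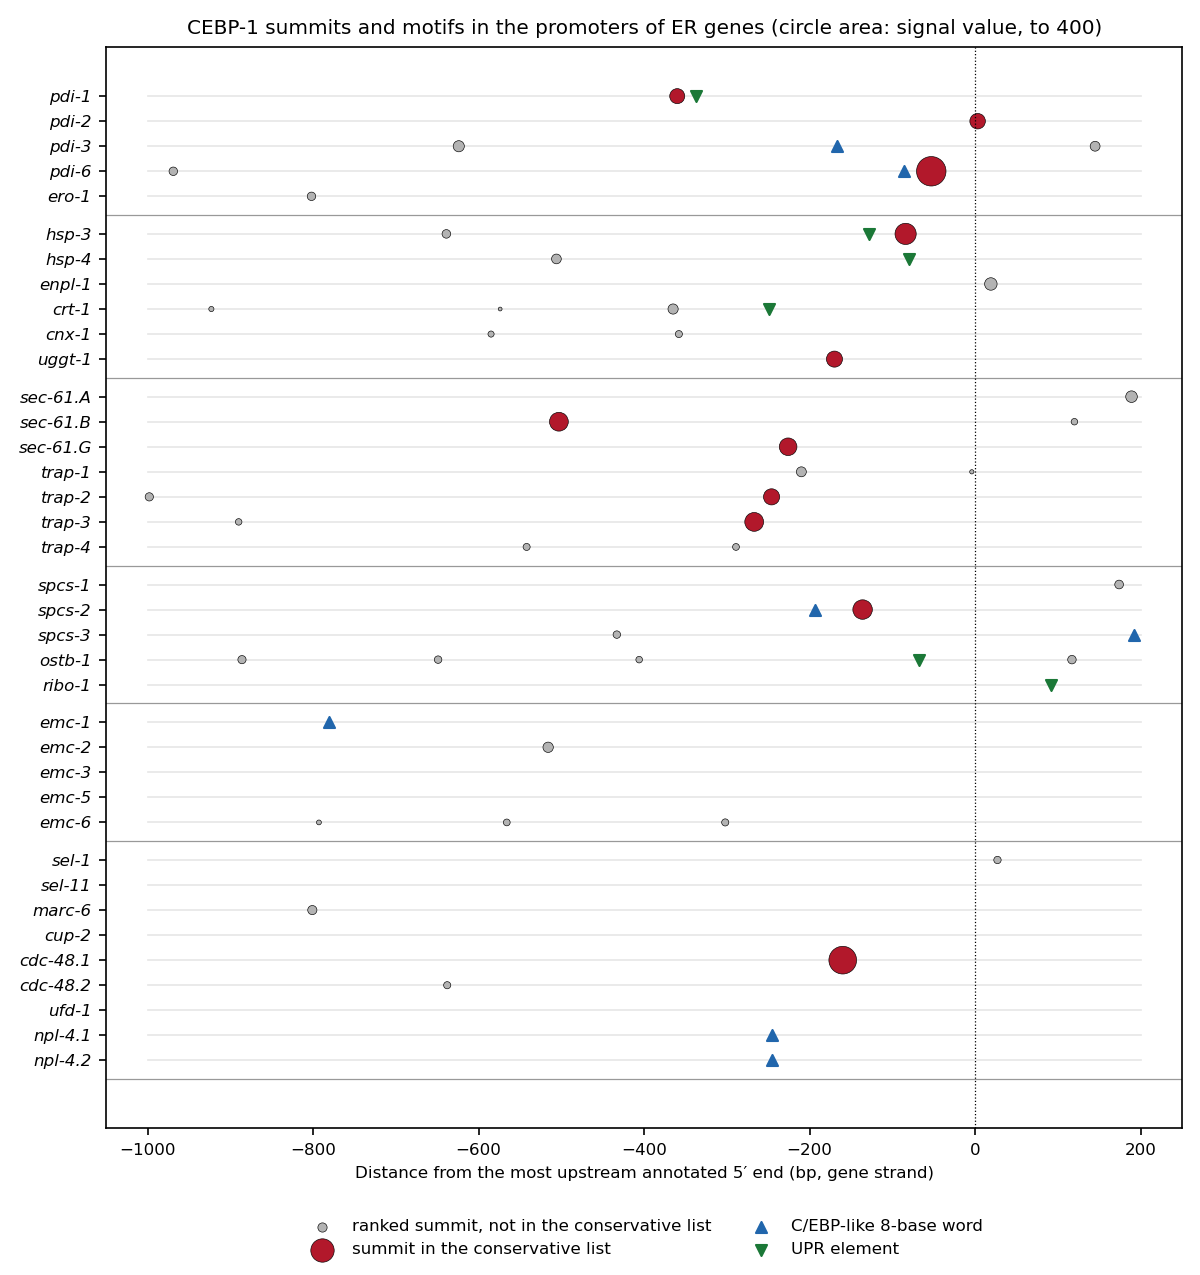
Each row is a gene of the list and runs from 1000 bp upstream to 200 bp downstream of its most upstream 5′ end (x axis, bp); red circles are summits of the conservative list, grey circles other ranked summits, triangles the C/EBP-like 8-base word and inverted triangles the UPR element, with circle area following the signal value up to a limit. The red circles sit within 503 bp of the 5′ end, and rows of the ER membrane protein complex and most ERAD genes hold grey circles or none.

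The order of the peaks held at both ends in the replicates. In each replicate's own list the pdi-6 peak was the strongest of the 10, the cdc-48.1 peak came next and the pdi-1 peak was the weakest. Between them the order changed: spcs-2 was the third of 10 in replicate 1 and the eighth in replicate 2, and trap-2 was the seventh and the ninth. The differences in strength among hsp-3, spcs-2, the sec-61.B and trap-3 peak, sec-61.G, trap-2, uggt-1 and pdi-2 therefore do not all hold in both replicates.

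The evenness of the replicates was described by rank. By the ranks within each list as a share of its length, the most even peaks were those of pdi-6, trap-2 and cdc-48.1, whose shares differed by 0.266, 0.350 and 0.587 on the log2 scale. The least even were uggt-1 at 1.65, pdi-2 at 1.49 and the sec-61.B and trap-3 peak at 1.32. All 3 ranked higher in replicate 2, as did every other ER gene peak except that of spcs-2. The same measure over all conservative peaks is not given here.

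**Figure D2:**
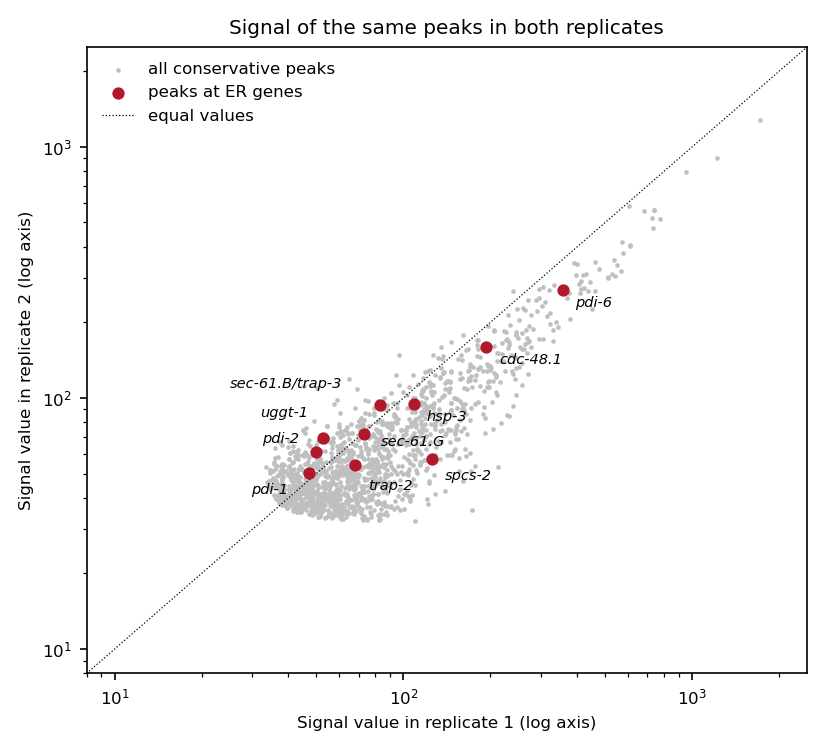
Signal value of the 1525 of 1546 conservative peaks matched in both ranked lists, for replicate 1 (x axis, log scale) and replicate 2 (y axis, log scale). Some points coincide where conservative peaks overlap the same replicate peaks. Red points are the peaks at ER genes, grey points all others, and the dotted line marks equal values, on scales that are not stated. The pdi-6 peak (357 and 269) and the cdc-48.1 peak (194 and 159) lie to the upper right of the others, the spcs-2 peak stands at 126 and 56.9, and the other ER gene peaks lie between 47.2 and 109 in replicate 1.

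Against the whole conservative list the ER gene peaks were spread from near the top to below the middle. Their median signal was 153, compared with 115 over all 1546 conservative peaks and 122 over the 879 with a summit in a promoter. Of the 10, 8 lay above the median of 115. The median rank of the 10 peaks was 32.0% from the top of the list. Their summits were a median of 165 bp upstream, compared with 216 bp for all promoter summits. The G and C content within 100 bp of the summit had a median of 48.5% (32.3% at cdc-48.1 to 61.2% at pdi-2). Over all conservative promoter windows the median was 41.8%, with quartiles of 36.3% and 47.8%.

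**Figure D3:**
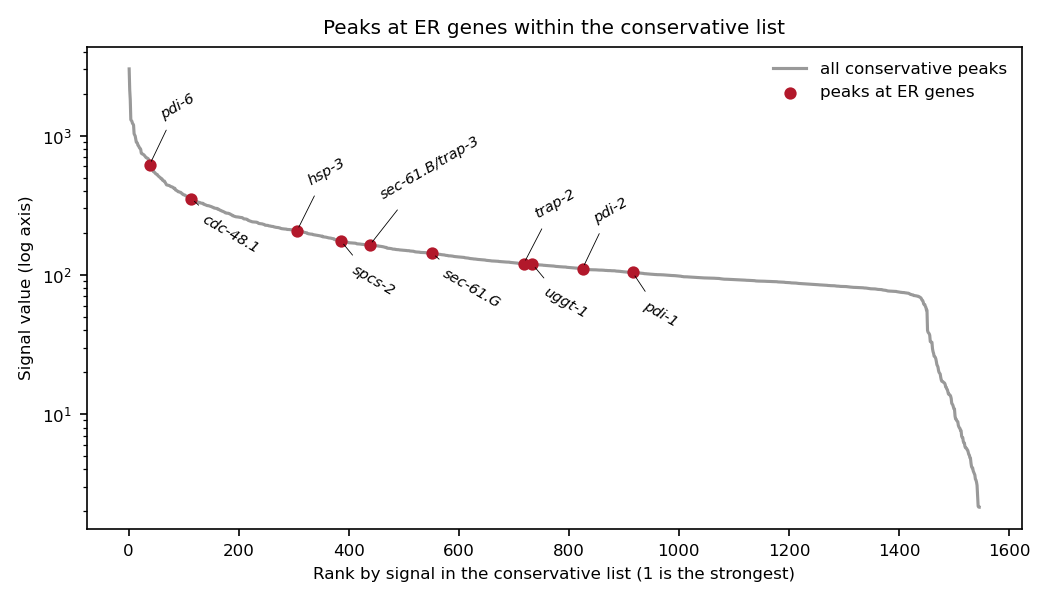
Signal value (y axis, log scale) of the 1546 conservative peaks in order of rank (x axis), with the 10 peaks at ER genes as red points. The pdi-6 and cdc-48.1 peaks lie on the steep start of the curve at ranks 38 and 114, and the other 8 lie along its flat part from rank 306 to rank 916.

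The words under the summits differed between genes. The words searched were chosen with earlier results of these data known. TTGCGAAA, read on both strands within 100 bp of the summit, was present at 2 of the 10 ER gene peaks (20%), pdi-6 and spcs-2. It was present at 31.2% of the 879 conservative promoter peaks and 28.6% of all conservative peaks, and at 2.69% of the 13888 ranked promoter summits outside the conservative list. In pdi-6 it lay 32 bp from the summit and in spcs-2 58 bp. The C/EBP consensus, taken as TTACGCAA, TTACGTAA, TTGCGCAA or TTGCGTAA, was found at pdi-6 (10% of the peaks, compared with 2.5% of conservative promoter peaks), 18 bp from the summit. TTGCATCA, the cyclic AMP response element TGACGTCA and the scrambled word TAGAGTCA were at none of the 10, and at 1.71%, 1.59% and 0.114% of conservative promoter peaks.

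Of the elements known from the UPR, the UPR element, TGACGTGG or TGACGTGT, was within 100 bp of the summit at hsp-3 and pdi-1 (20%). It was present at 1.93% of conservative promoter peaks, 1.62% of all conservative peaks and 1.39% of ranked promoter summits outside the list. It lay 44 bp from the summit of hsp-3 and 22 bp from that of pdi-1. The hexamer CACGTG was found at pdi-1, 8 bp from the summit, and at 7.17% of conservative promoter peaks. The ER stress element, a CCAAT box and a CCACG separated by 9 bases, known from mammalian ER chaperone promoters, was found at pdi-2, 2 bp from the summit. That was the only conservative peak of the 1546 to hold it, and 21 of all 19973 promoters (0.105%) did so.

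A further word, TTTGCGTA, was searched after these sequences had been seen and is given as a description. It lay at 3 of the 10 summits (30%): 0 bp from the summit at cdc-48.1, 4 bp at the sec-61.B and trap-3 peak and 10 bp at spcs-2. It shares 7 letters with TTGCGTAA of the C/EBP consensus, and none of these 3 matches was also a match to that word. TTTGCGTA was present at 1.93% of conservative promoter peaks and 0.922% of ranked promoter summits outside the list. Among the 45 pairs of ER gene windows, the longest run of bases in common was 13, between spcs-2 and the sec-61.B and trap-3 peak. That run contains the word and reads as follows on the strand shown above.
spcs-2 and trap-3: GTACGCAAACACC

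Leaving out the scrambled word and TTTGCGTA, 5 of the 10 ER gene peaks held at least 1 of the 7 other motifs (50%), compared with 41.3% of conservative promoter peaks. The peaks of cdc-48.1 and of sec-61.B and trap-3 held TTTGCGTA alone. With it, 7 of the 10 held a motif, compared with 42.5% of conservative promoter peaks, but the word was picked from these peaks. Those of uggt-1, sec-61.G and trap-2 held none. Whole promoters of 1200 bp were searched at the most upstream 5′ end only, whereas binding was called at any annotated 5′ end. In these promoters TTGCGAAA was present at 2 of the 11 bound ER genes (18.2%) and 5 of the 26 unbound ones (19.2%). The 5 included npl-4.1 and npl-4.2, whose promoters shared 95.7% of their 50-base words and held TTGCGAAA at the same distance from the 5′ end. Over all genes TTGCGAAA was present in 10.1% of promoters and in 34.6% of those of bound genes. The UPR element was in the promoters of 2 of the 11 bound and 4 of the 26 unbound ER genes (15.4%), and in 5.65% of all promoters. The 4 unbound ER genes with it were hsp-4, crt-1, ostb-1 and ribo-1.

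All 5 of the ER genes on chromosome X were bound (pdi-2, pdi-6, hsp-3, uggt-1 and trap-2), compared with 5.13% of the 2731 protein-coding genes of that chromosome. On the autosomes 6 of 32 were bound, compared with 5.05% of 17242 genes. The 6 were spread over 4 chromosomes, with 1 of 9 on II, 2 of 5 on III, 2 of 8 on IV and 1 of 4 on V. The 6 ER genes of the remaining autosome were all unbound. Among the other ER pathway genes described below, 1 of 5 on X was bound. The genes were divided by chromosome after the calls had been seen.

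The 26 unbound ER genes were not all without signal. A summit of the ranked list of the series, before any threshold, lay in the promoter of 28 of the 37 (75.7%), compared with 50.6% of all protein-coding genes, so 17 of the unbound genes had one. Of those 28 genes 11 were bound (39.3%), compared with 10% of all genes that had a ranked summit. The signals of the 17 ran from 22.9 to 71.9 with a median of 34.9, and the lowest signal of a bound ER gene was 104. The threshold that made the conservative list separates these groups by itself.

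The strongest of them was enpl-1, the ER Hsp90 gene, with a signal of 71.9, and overlapping peaks of replicates 1 and 2 had 33.8 and 34.4. No other ER gene was bound in the optimal list and not in the conservative one. With it the count was 12 of 37 (32.4%), compared with 6.31% of all genes, and its peak is shared with imp-2. Next came sec-61.A at 62.0, with overlapping peaks of 32.8 and 25.5, and emc-2 at 49.4, with 24.5 and 19.8. The pdi-3 peak, at 57.1, overlapped a peak of replicate 1 (41.8) and none of replicate 2. That of crt-1, the calreticulin gene, at 47.8, overlapped none of replicate 1 and 1 of replicate 2 (29.3).

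For 5 unbound genes a conservative summit lay outside the promoter window but within 2000 bp upstream. It lay 1035 bp upstream of spcs-3, a signal peptidase subunit gene, at a peak with a signal of 429 (rank 78) in the promoter of K12H4.5. It lay 1067 bp upstream of pdi-3 (signal 135, in the promoter of ubql-1) and 1255 bp upstream of emc-5 (105, of ooc-3 and B0334.4). For emc-6 and cnx-1, the calnexin gene, it lay 1348 and 1849 bp upstream (148 and 97.4, in the promoters of nhr-8 and panl-3). The other 21 unbound genes were over 5000 bp from any conservative summit. No conservative summit lay in the body of an ER gene outside its promoter.

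In the thresholded list of replicate 1 alone 8 of the 37 ER genes had a summit in the promoter (21.6%), compared with 5.37% of all genes. In that of replicate 2 alone 9 did (24.3%), compared with 2.91%. The 7 genes in both were the ones named above. The replicate 2 list was the shorter one and had the higher count of ER genes.

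**Figure D4:**
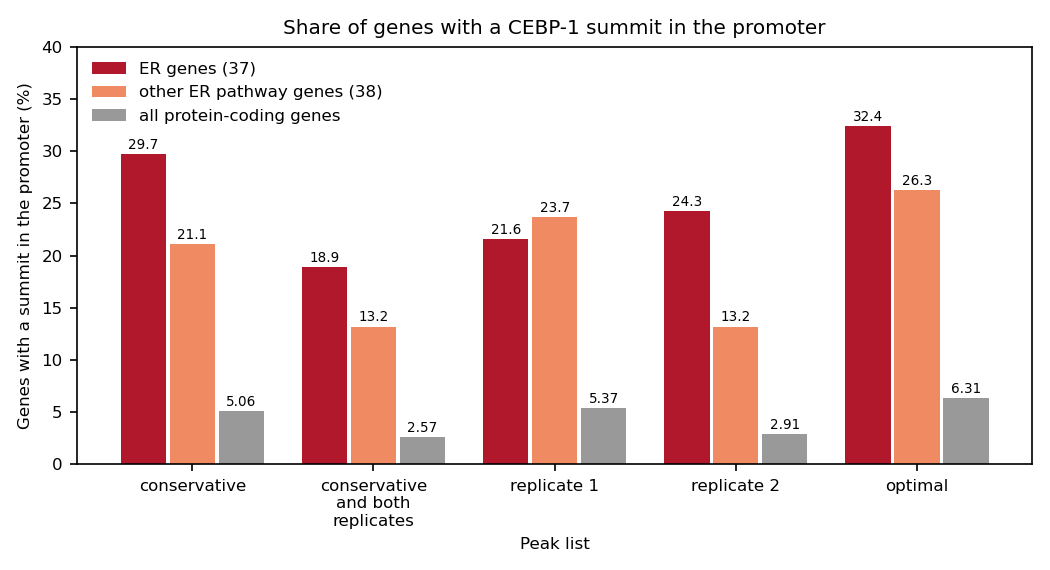
Share of genes (y axis, %) with a CEBP-1 summit in the promoter, in 5 peak lists (x axis), for the 37 ER genes (red), 38 other ER pathway genes (orange) and all protein-coding genes (grey); bars start at 0 and carry no error because each is a count over 1 list. The red bars run from 18.9% to 32.4%, the orange from 13.2% to 26.3% and the grey from 2.57% to 6.31%.

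The other genes of the pathway, 38 named by function as partners of the ones above, were bound in 8 cases (21.1%), and 5 of them in both replicates. These 38 genes were also listed with earlier results of these data known. They covered genes listed for the signal recognition particle and its receptor (2 of 7 bound, of which R186.3 carries another RefSeq annotation, given below), other translocation factors (0 of 4), other oligosaccharyltransferase subunits (1 of 4), chaperone partners (1 of 6), ERAD partners (2 of 13) and the UPR sensors with XBP-1 (2 of 4). The share bound over all genes was 5.06%, and that bound with support in both replicates 2.57%. The 38 had a ranked summit in the promoter in 25 cases (65.8%, with 50.6% over all genes), and the 8 were 32.0% of these (with 10% over all genes).

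Of the UPR regulators, xbp-1 and ire-1 were bound and atf-6 and pek-1 were not. The xbp-1 peak was the fourth strongest of the conservative list, at a signal of 1301 (773 and 517 in replicates 1 and 2), centred 36 bp upstream. The ire-1 peak ranked 360, with signals of 114 and 74.2 in replicates 1 and 2 and a summit 143 bp upstream. For atf-6 and pek-1 the ranked summits in the promoter had signals of 68.9 and 53.1. TTGCGAAA lay within 100 bp of the summit at xbp-1, ire-1 and F37F2.2, 3 of the 8 peaks (37.5%), and the UPR element at dnj-20.

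The remaining 6 bound genes of this wider group covered several steps. F37F2.2, for the SRP19 subunit of the signal recognition particle, had a signal of 322 (184 and 146), and R186.3, annotated by RefSeq as an ADP-ribosylation factor-related protein, had 109 (59.2 and 48.3). The R186.3 summit lay 809 bp from that gene, in the promoter of lin-46 as well, and 37 bp upstream of R186.8, its nearest gene. The gene of the oligosaccharyltransferase subunit DAD1, dad-1, had 148 (84.6 and 63.8), shared with tre-1. That summit lay 371 bp upstream of dad-1 and 68 bp upstream of tre-1, its nearest gene. The DnaJ co-chaperone gene dnj-20 had 150 (89.6 and 59.3), with the summit in an intron, 196 bp downstream of the 5′ end. The ubiquitin-conjugating enzyme gene ubc-6, whose relatives work in ERAD, had 172 (84.9 and 90.7), shared with aka-1. The mannosidase gene ZC506.1, which trims glycans before ERAD, had 95.7 (58.2 and 38.9). Values in parentheses are those of replicates 1 and 2. The signal recognition gene srpa-54 (F21D5.7) was bound in the optimal list (78.9) and in that of replicate 1 (63.5), but not in the conservative list or that of replicate 2. The imp-2 gene, for a signal peptide peptidase, was bound in the optimal list through the peak it shares with enpl-1. The xbp-1 peak exceeded each of the 10 peaks at the folding, translocation and ERAD genes in both replicates. Of the other 7 peaks, 6 had conservative signals inside the range of those 10, and that of ZC506.1 was below it.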

How the data were processed

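Per the deposited notes, the authors mapped to ce11, called peaks relative to a control alignment and ordered them by IDR. Which caller they used, and how it was set, is not given in the sources used here. The deposited score is a whole number per peak assigned by the authors, at least 830 in the thresholded lists. The authors' signal value has no stated scaling and was used to order peaks within a list. For each conservative interval, the authors' −log10 global IDR came from the ranked list that contains it. A replicate's value at a peak is that of its own ranked peak.

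Genes came from Ensembl release 115 of WBcel235, the same build as ce11, and sequences from the RefSeq genome of that build. Summits were assigned to promoters, and 9 motifs were searched on both strands within 100 bp of each summit. Copies were compared by runs of 50 bases. Python 3.11.15, numpy 2.4.6 and pandas 2.3.3 were used, and the procedures were tested on simulated data. No column of other samples was present (0).

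The members, lists and motifs were chosen with earlier results of these data known. The genes named are every bound gene of both lists, genes sharing their summits, genes bound in some lists only, unbound genes nearest the window, the 5 unbound genes with the strongest ranked summit, and the 3 peaks with the most and least even replicate ranks. Others are named to complete a complex. Alternatives changed the peak list, promoter window, assignment and motif window.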

Additional observations from a re-analysis of the deposited data

How the results depend on the processing

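Of 44 alternatives over the 5 results, 38 stayed within 1.5 times the reported value and 6 moved further. Not all of the 44 could test a result. With 1 replicate left out, the count in both replicates was only the count of the other list, 8 or 9. With the nearest gene only or the 500 bp promoters, the median rank rested on the same 10 peaks. The 11 bound ER genes became 12 in the optimal list (6.31% of all genes bound) and 10 at a global IDR of at most 0.001 (3.11%), where pdi-1 was lost. They became 10 with promoters of 500 bp upstream and 100 bp downstream (3.72%) or with the nearest gene only (3.94%), where sec-61.B was lost each time. They became 16 with 2000 bp upstream (6.65%) and 13 by peak overlap (5.40%). Using the list of a single replicate gave 8 to 9 bound genes (5.37% of all genes in replicate 1 and 2.91% in replicate 2), a median rank of 25.4% to 42.5% from the top, 1 to 2 genes with TTGCGAAA and 5 to 9 bound genes of the wider list. The count in both replicates was 7 (2.57% of all genes), and 11 when ranked replicate lists replaced thresholded ones. The ranked lists could hardly give fewer than 11, because 1525 of the 1546 conservative peaks were matched in both of them. The count in both replicates was 6 with the 500 bp promoters or the nearest gene only, and 9 with 2000 bp upstream or by peak overlap. For these alternatives the share of all genes that met the same rule is not given here, so these counts have no background beside them. The median rank was 32.0%, and 53.3% at the stricter IDR, where the list itself is shorter. TTGCGAAA lay at the summits of 4 ER genes with 2000 bp promoters, which take in more genes, and of 1 within 50 bp of the summit. The 8 bound genes of the wider list became 6 with the nearest gene only, the 500 bp promoters or the stricter IDR. They became 10 in the optimal list and stayed at 8 with 2000 bp upstream or by peak overlap. The shares of all genes in these settings are those given above.

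No paired analysis was possible because there is 1 group. Without read counts, depth and the signal over background are unknown, and a missing summit means only that none was listed. With 2 replicates and no untagged sample, signal that does not depend on the tagged protein cannot be told apart from binding.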
